A study of Homo sapiens with 6 samples.

Results

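The SRC family of non-receptor tyrosine kinases and CSK, the kinase that holds this family in check, were followed in A549 cells upon knock-down of KMT9α. The group was defined by gene symbol and comprised 8 of the 23180 symbols in the RNA-Seq table: the SRC family kinases YES1, SRC, FYN, LYN, LCK and FGR, the related kinase FRK, and CSK. The rule itself uses symbols and no measured value, although the group was set up with earlier results of these data known. A549 is an established lung adenocarcinoma cell line with mutated CDKN2A. All 6 samples came from A549 cells of passage 11, 3 transfected with the control siRNA siControl and 3 with siKMT9α#1, an siRNA against N6AMT1, which encodes the catalytic subunit of the histone methyltransferase KMT9. The siRNA concentration was 65 nM and RNA was isolated 3 days later. The labels call the replicates biological and give the target of the siRNA, whereas its number, its concentration and the time come from the study's methods. Only 1 siRNA against KMT9α and 1 cell line entered the comparison, and untransfected cells were not analysed here.

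SRC family kinases are anchored by lipid to the inner face of the plasma membrane, where they relay signals from growth factor receptors and integrins to adaptor proteins of focal adhesions. Phosphorylation of a tyrosine in their C-terminal tail by CSK closes the kinase, and removal of that phosphate by tyrosine phosphatases opens it. SRC, YES1 and FYN are found in most tissues, LYN in blood cells and many epithelia, LCK in T cells and FGR in myeloid cells. This layer of control acts on proteins, so the mRNA levels given here carry no information on kinase activity.

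Upon knock-down of KMT9α the members moved in different directions. YES1, LYN and FYN mRNA fell to 34.9%, 66.4% and 70.9% of their siControl levels, whereas SRC and CSK rose 1.52-fold and 1.22-fold. FRK was low and its difference did not pass the test, and LCK and FGR were at or near 0 counts. Of the 8 members, 6 had enough counts to be tested. Of these 6, 5 had an adjusted p under 0.05 (quasi-likelihood F test of edgeR, p-values adjusted after Benjamini and Hochberg for 13877 genes), 2 higher and 3 lower. The background for this count is high, as 75.6% of all genes tested passed (37.1% of all genes tested higher and 38.5% lower). The size of each change is therefore given below beside the count. Since bulk RNA was sequenced, fewer cells expressing a gene and less of its RNA per cell cannot be told apart.

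The YES1 transcript was of interest for its sequence as well. A guide strand of an siRNA can pair through its bases 2 to 8, the seed, with sites in 3′ UTRs of other mRNAs. For siKMT9α#1 such a site reads ACATTCA, as derived from the siRNA sequence in the study's methods. The 3′ UTR of YES1 (2836 bases, GRCh37 annotation) holds 3 copies of this 7-mer, whereas 11.3% of the 12752 genes tested with a 3′ UTR hold at least 1 copy and 0.243% hold 3 or more. The 3 copies are shown with the bases around them because YES1 is the member with the largest change. They lie on the minus strand at chr18:723180-723202, chr18:723105-723127 and chr18:722795-722817, and the capitals mark the 7-mer.
YES1 site 1: atggcttcACATTCAttgcagtg
YES1 site 2: ttgaatctACATTCActtttttt
YES1 site 3: cccagcctACATTCActtctaaa
The UTRs were searched on the strand of the transcript only. None of the 3 copies is followed by an A. The UTRs of the other tested members hold no copy within the spans counted, and a single copy in the annotated UTR of FRK lies outside its deposited span. The 7-mer of siControl, ACGCAAA, was found in none of the 8 members and in 1.59% of the genes. The median log2 fold change was -0.26 for genes that hold ACATTCA and 0.01 for genes that do not. For genes with and without ACGCAAA, the 7-mer of siControl, the medians were 0.21 and -0.02. The shares and medians were not matched for the length of the UTRs. A match of these letters is a description, and whether the siRNA acts on YES1 through them was not tested. LYN and FYN, the other members that fell, hold no copy in their annotated 3′ UTRs.

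The knock-down and the depth were checked before the members were compared. N6AMT1, the targeted gene, had 10.2, 10.8 and 11.5 CPM (counts scaled to library size with TMM factors) in the siControl samples and 2.87, 3.22 and 3.35 CPM in the siKMT9α#1 samples. This was a log2 fold change of -1.77 with a standard error of 0.12 (adjusted p = 1.43e-10). The samples held 13740097 to 19832395.5 estimated counts over the transcripts used, and a floor of 3 counts corresponds to 0.156 to 0.227 CPM. Over all genes the log2 fold changes had a median of -0.01, and of -0.12 when scaled by library size alone. POLR2A, the gene the study used to normalise its qPCR, had a log2 fold change of -0.09 (adjusted p = 0.13), which became -0.33 (adjusted p = 4.01e-07) with an adjustment for GC content and transcript length and -0.19 (adjusted p = 0.00222) when scaled by library size alone. GAPDH had one of 0.21 (adjusted p = 0.00248), which no longer passed when scaled by library size alone (0.11, adjusted p = 0.0948) and was 0.44 (adjusted p = 2.86e-10) with the adjustment for GC content and length. All 8 markers of A549 epithelial carcinoma cells were detected and summed to 8078 to 8466 CPM with siControl and 6766 to 6827 CPM with siKMT9α#1, although CDH1 and EPCAM were low with siControl, at 3.39 and 3.86 CPM. The markers moved in both directions, as KRT8 went from 1281 to 527.8 CPM, AKR1C1 from 517.7 to 105.1 CPM and EPCAM to 0.593 CPM, whereas ALDH1A1 went from 1949 to 3170.4 CPM and CDH1 to 8.62 CPM.

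YES1 encodes a broadly expressed family member closely related to SRC and is carried by transcript NM_005433 on chromosome 18 of hg19 from 721592 to 812327, on the minus strand. It was measured at 107.7, 104.4 and 105.2 CPM in the siControl samples and at 33.9, 36.6 and 39.8 CPM in the siKMT9α#1 samples. Every siKMT9α#1 sample was below every siControl sample. Groups that do not overlap were found for 5 of the 6 tested members, and for 77% of all genes tested. The means were 105.8 ± 1.72 and 36.8 ± 2.99 CPM (SD, n = 3 each). This gave a log2 fold change of -1.52 (standard error 0.06, 95% interval -1.64 to -1.39, adjusted p = 2.07e-14), and 4.55% of the genes tested had a lower one. YES1 was among the genes the study picked from these samples for follow-up, so its change here is not independent evidence of its direction. For the genes that it picked, the study further reports mass spectrometry, western blot and qRT-PCR data, which were not analysed here. The annotation also holds a processed pseudogene, YES1P1, which was not analysed here, and reads shared with it were not tested.

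SRC, the founding member of the family and the cellular counterpart of a retroviral oncogene, lies on chromosome 20 from 35974557 to 36033821 on the plus strand (NM_198291). The siControl samples had 74.9, 75.7 and 80.5 CPM and the siKMT9α#1 samples 120.5, 113.6 and 116.5 CPM. The groups did not overlap, with means of 77.1 ± 3.01 and 116.8 ± 3.45 CPM (SD, n = 3 each). SRC had a log2 fold change of 0.60 (standard error 0.05, 95% interval 0.50 to 0.70, adjusted p = 1.85e-09), and 80.2% of the genes tested had a lower one. Its absolute log2 fold change was exceeded by 40.2% of the genes tested. Both YES1 and SRC also met the criterion of the study (an unadjusted p below 1e-08 with a log2 fold change beyond 0.26 in either direction), which 24.2% of all genes met, 13.5% being higher and 10.7% lower. This criterion was applied to the p-values of the test used here, not to those of the study. With counts summed over all transcripts of a gene, SRC no longer met it.

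LYN, best known for signalling downstream of immune receptors but also expressed in carcinoma cells, lies on chromosome 8 from 56792386 to 56925006 on the plus strand (NM_002350). Its level was 54.8, 50.2 and 56.9 CPM with siControl and 35.9, 35.4 and 36.3 CPM with siKMT9α#1. The siKMT9α#1 samples lay close together and below all siControl samples, with means of 54.0 ± 3.46 and 35.9 ± 0.405 CPM (SD, n = 3 each). For LYN the log2 fold change was -0.59 (standard error 0.06, 95% interval -0.72 to -0.46, adjusted p = 4.47e-08). A larger absolute log2 fold change was found for 40.8% of the genes tested. With an unadjusted p of 1.09e-08 in the test used here, LYN missed the criterion of the study by a narrow margin. LYN met the criterion without siControl replicate 1 and, among others, with DESeq2 and the likelihood-ratio test, but not with the sum over all transcripts. The study's own p-values were not used, so its call for LYN is not given here.

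FYN, which acts in adhesion and in T cell and neuronal signalling, is encoded on the minus strand of chromosome 6, from 111981535 to 112194655 (NM_002037). It was measured at 10.4, 10.1 and 10.4 CPM with siControl and at 7.29, 8.0 and 6.83 CPM with siKMT9α#1. All 3 siKMT9α#1 samples were below the siControl samples, with means of 10.3 ± 0.185 and 7.37 ± 0.592 CPM (SD, n = 3 each). FYN had a log2 fold change of -0.50 (standard error 0.10, 95% interval -0.71 to -0.28, adjusted p = 0.00028). A larger absolute log2 fold change was found for 47.7% of the genes tested. With 96.5 to 200.5 counts per sample, FYN rested on fewer reads than YES1, SRC and LYN.

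CSK, which phosphorylates the inhibitory tail tyrosine of the family, lies on chromosome 15 from 75074425 to 75095539 on the plus strand (NM_004383). The siControl samples had 24.7, 24.1 and 24.3 CPM and the siKMT9α#1 samples 29.2, 30.1 and 30.3 CPM. The change was small next to that of YES1, but the spread within each group was smaller still and the groups did not overlap. The means were 24.4 ± 0.315 and 29.9 ± 0.606 CPM (SD, n = 3 each). CSK had a log2 fold change of 0.29 (standard error 0.06, 95% interval 0.16 to 0.43, adjusted p = 0.000426). It was below the median absolute log2 fold change of all genes, which was 0.47, and it was 0.19 (adjusted p = 0.0131) when scaled by library size alone. The microRNA gene MIR4513 overlaps CSK on the other strand and had 0 to 1 counts.

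FRK, a relative of the family without the lipid anchor site, is encoded on the minus strand of chromosome 6, from 116262693 to 116381921 (NM_002031). It was measured at 3.64, 3.95 and 3.07 CPM with siControl and at 4.35, 4.24 and 3.71 CPM with siKMT9α#1. The lowest siKMT9α#1 sample lay within the siControl range, and the difference was not significant (log2 fold change 0.21, standard error 0.15, adjusted p = 0.225). The 95% interval, from -0.11 to 0.53, includes both 0 and the change measured for CSK, and FRK rested on 57.5 to 71.0 counts per sample. The pseudogene TPI1P3 overlaps FRK on the other strand with 5 to 14 counts, and whether the counting used the strand is not given in the sources used here.

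LCK, the kinase of the T cell receptor, had 0, 0 and 0 counts with siControl and 1, 0 and 1 counts with siKMT9α#1. FGR had 0 counts in all 6 samples, in each of its 3 transcripts. Both were below the floor of 3 counts per library and no fold change was computed. Among 15 blood cell markers 11 were below 1 CPM and CD3D, CD3E, MS4A1 and SPI1 were at 0 in all samples, as were LCK and FGR in the siControl samples. The summed level of the 15 markers was 20.4 to 22.2 CPM with siControl and 5.52 to 7.49 CPM with siKMT9α#1. The largest part of this sum was CD8A, which had 11.3 CPM with siControl and 2.41 CPM with siKMT9α#1, whereas PTPRC, found on nearly all white blood cells, had 0.0177 and 0.0471 CPM. The 6 fibroblast markers summed to 6.89 to 8.66 and 3.18 to 3.90 CPM, with COL1A2 at 0, and the 3 endothelial markers to 0.494 to 0.803 and 0.0756 to 0.157 CPM, with none of these 3 at 0 throughout. The part of these markers in the change of LYN and FYN was not tested.

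**Figure D1:**
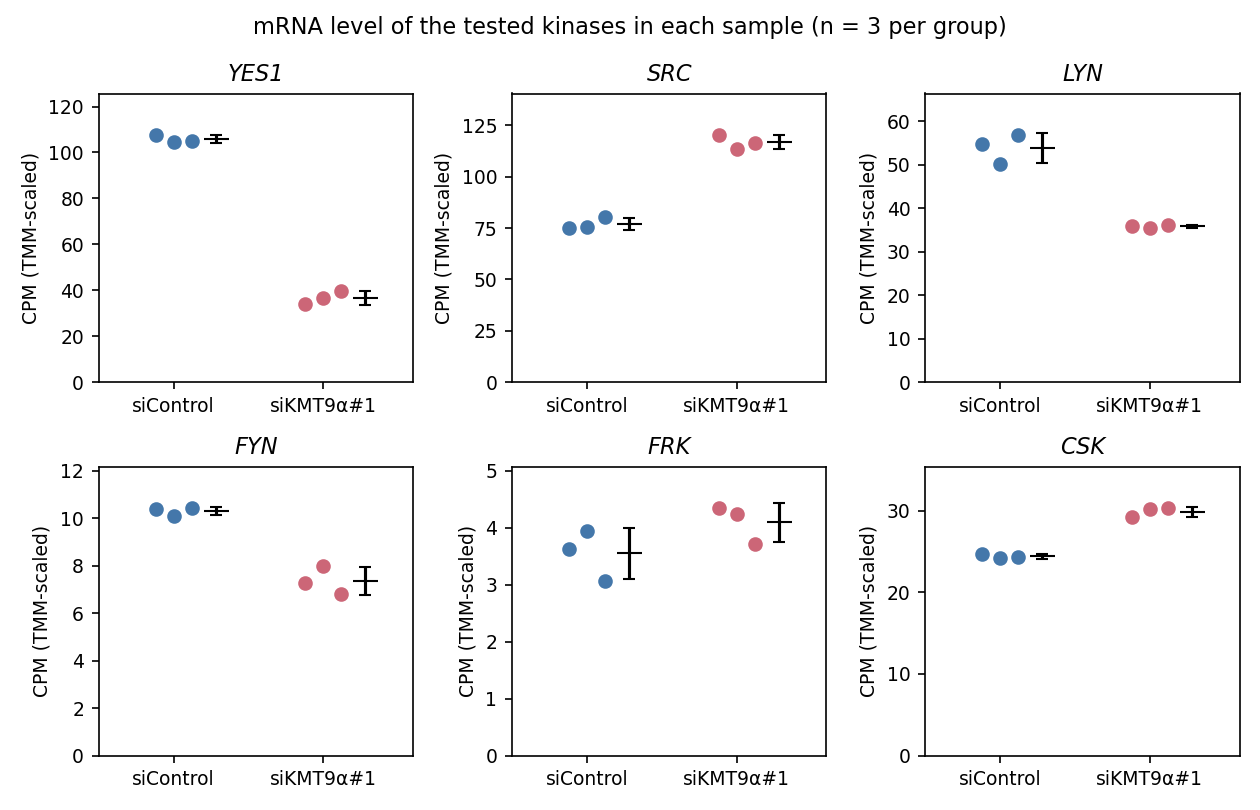
Each panel plots 1 tested kinase, with its level in CPM scaled by TMM factors on a linear axis from 0 and the 3 siControl (blue) and 3 siKMT9α#1 (red) samples on the x axis. Points are samples, and the bar beside them is the mean with its SD. The YES1, LYN and FYN samples are lower with siKMT9α#1, the SRC and CSK samples are higher, and the FRK samples overlap.

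Each listed transcript of a member behaved like the one chosen. The log2 fold changes were 0.60 for both SRC transcripts, 0.29 to 0.30 for the 2 CSK transcripts, -0.59 for both LYN transcripts and -0.52 to -0.50 for the 3 FYN transcripts. YES1 and FRK are listed with 1 transcript. These transcripts share exons and thus reads, so they do not count as separate measurements, and 76.3% of all transcripts tested passed an adjusted p under 0.05.

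Because the kinases differ in length, their levels were compared with each other only as CPM per kilobase of transcript (RPKM). With siControl, YES1 was the most abundant member at 22.7 ± 0.369 RPKM, followed by SRC at 19.4 ± 0.757, LYN at 13.1 ± 0.837, CSK at 8.98 ± 0.116, FYN at 2.86 ± 0.0513 and FRK at 1.25 ± 0.158 RPKM (SD, n = 3). With siKMT9α#1, SRC was the most abundant at 29.4 ± 0.869 RPKM, followed by CSK at 11.0 ± 0.223, LYN at 8.68 ± 0.0979, YES1 at 7.88 ± 0.642, FYN at 2.05 ± 0.164 and FRK at 1.45 ± 0.119 RPKM. YES1 thus went from the highest to the fourth place and CSK from the fourth to the second. In either group, the samples of neighbours in this order did not overlap. The closest pair was LYN and YES1 with siKMT9α#1, whose samples ranged from 8.58 to 8.77 and from 7.26 to 8.54 RPKM.

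The pair of YES1 and SRC made up most of the family mRNA in both groups, but the order within the pair was reversed. The summed level of YES1, SRC, FYN, LYN, LCK and FGR was 58.1, 56.4 and 59.5 RPKM with siControl and 48.3, 47.3 and 48.6 RPKM with siKMT9α#1. This sum went from 58.0 ± 1.55 to 48.1 ± 0.705 RPKM and the 2 groups did not overlap. Of the sum, SRC took 33.4% ± 0.859 with siControl and 61.2% ± 1.32 with siKMT9α#1, whereas YES1 took 39.1% ± 1.04 and 16.4% ± 1.30. LYN took 22.5% ± 0.861 and 18.1% ± 0.0918, and FYN took 4.94% ± 0.0614 and 4.27% ± 0.405. The share of YES1 and SRC together was 72.6% ± 0.823 and 77.6% ± 0.435.

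The ratio of SRC to YES1, in RPKM, was 0.817, 0.852 and 0.898 in the siControl samples and 4.18, 3.65 and 3.43 in the siKMT9α#1 samples. SRC was thus the lower of this pair in every siControl sample and the higher in every siKMT9α#1 sample. The summed family level relative to CSK was 6.38, 6.34 and 6.65 with siControl and 4.50, 4.26 and 4.35 with siKMT9α#1. The ratio of SRC to CSK was 2.16 ± 0.0991 and 2.68 ± 0.13, so that, per CSK transcript, SRC was higher and YES1, LYN and FYN together were lower upon knock-down. The ratio of LYN to FYN was 4.56 ± 0.216 and 4.26 ± 0.385 and its samples overlapped. These levels, shares and ratios are given as a description without a test, and they depend on the transcript lengths in the deposited table.

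**Figure D2:**
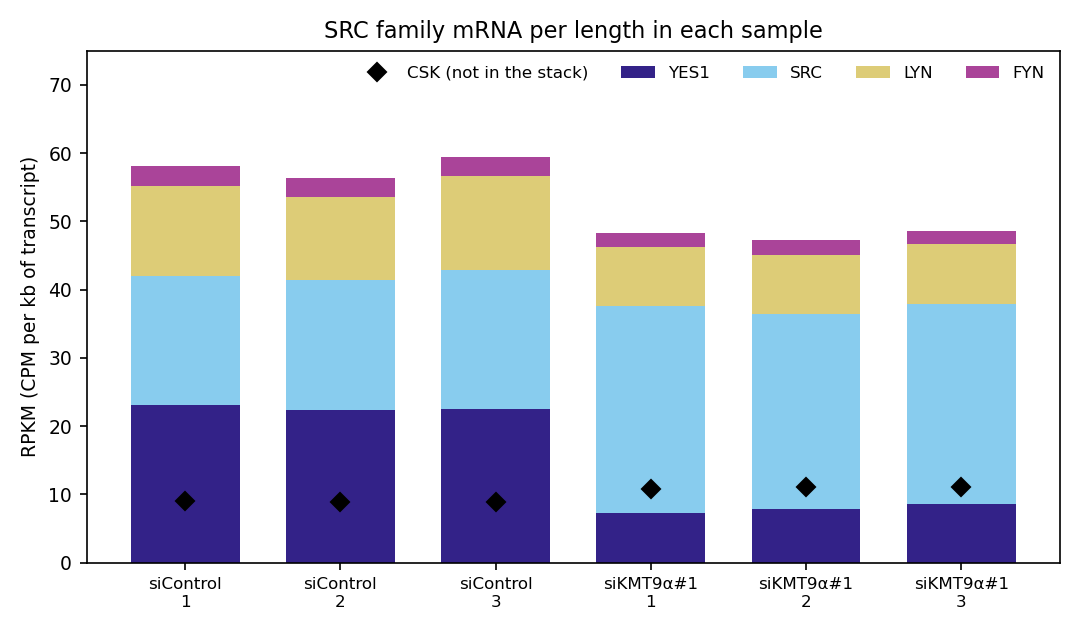
Stacked bars show the levels of YES1, SRC, LYN and FYN in each of the 6 samples in RPKM (CPM per kb of transcript), and diamonds show CSK, which is not part of the stack. The stacks reach 56.4 to 59.5 RPKM with siControl and 47.3 to 48.6 RPKM with siKMT9α#1. The YES1 segment is larger than the SRC segment with siControl and smaller with siKMT9α#1.

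The members were next placed among the other non-receptor tyrosine kinases. Of 32 such kinases including the members, 21 were tested. YES1 had the lowest log2 fold change of the 21, followed by FES (-1.29), JAK3 (-1.06), FER (-1.04) and PTK6 (-0.92), and LYN and FYN came sixth and seventh from the lowest. SRC was the third highest, below JAK2 (0.76) and JAK1 (1.45) and above PTK2 (0.47, and 0.27 with GC and length adjustment), which encodes the focal adhesion kinase FAK. JAK1, which couples cytokine receptors to STAT proteins, went from 213.7 ± 6.84 to 585.6 ± 11.6 CPM (SD, n = 3 each, adjusted p = 1.84e-15). Of the 15 tested kinases outside the members, 6 were higher, 4 were lower and 5 did not pass (TNK1, PTK2B, TYK2, TEC and TXK), with a median log2 fold change of 0.16. The share called was 66.7%, against 75.6% of all genes.

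Of the further kinases near to the family by structure, BLK reached at most 2 counts in any sample, SRMS at most 4.5 counts and MATK, a relative of CSK, at most 10 counts. None of these 3 was tested. PTK6, a relative of FRK that is found in epithelia, had enough counts to be tested, and its level fell from 5.62 ± 0.337 to 3.01 ± 0.583 CPM (SD, n = 3 each, log2 fold change -0.92, standard error 0.15, adjusted p = 1.95e-05).

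**Figure D3:**
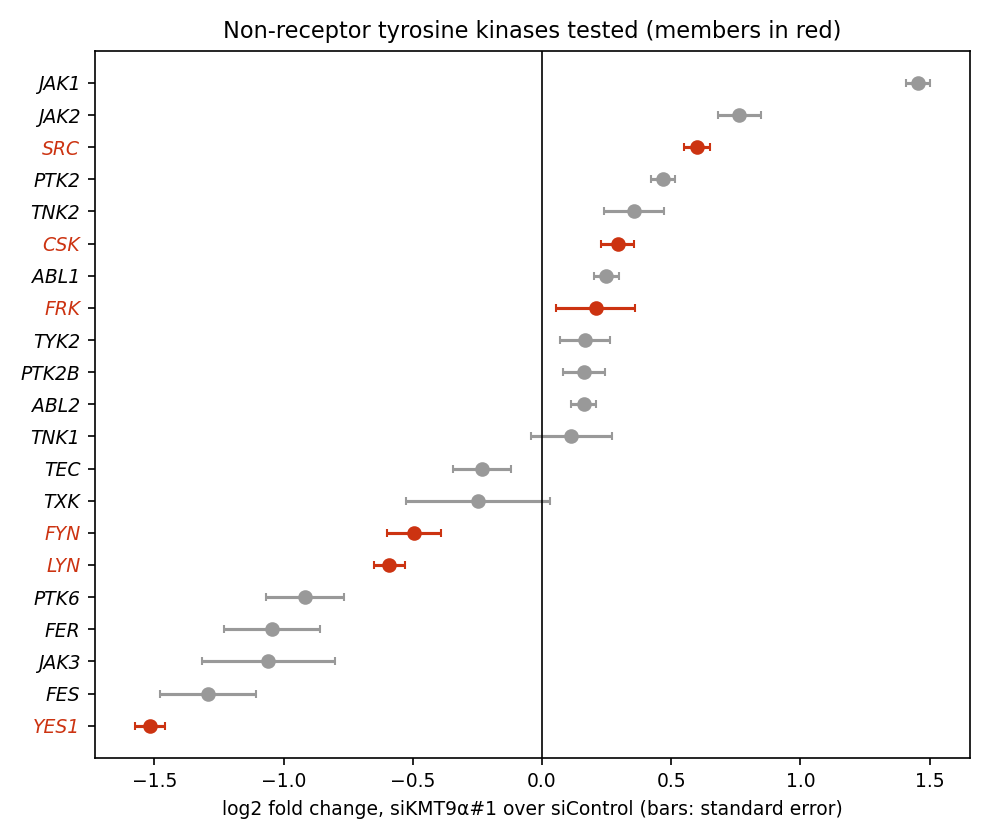
The log2 fold change (siKMT9α#1 over siControl) of the 21 tested non-receptor tyrosine kinases is plotted with its standard error, with the members in red. YES1 is at the lower end at -1.52, and SRC, at 0.60, is exceeded by JAK2 and JAK1.

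Regulators of the activity and membrane anchoring of the family were examined as a list of 21 genes, 19 of which were tested. Of these, 9 were higher, 3 were lower and 7 did not pass, so that 63.2% were called, against 75.6% of all genes, and the median log2 fold change was 0.24, against -0.01 for all genes. The largest positive changes were those of UNC119B, a chaperone for lipid-modified proteins, from 17.95 ± 1.04 to 53.7 ± 1.64 CPM (log2 fold change 1.57), PTPRA, a receptor phosphatase that removes the tail phosphate, from 30.0 ± 0.635 to 86.3 ± 3.26 CPM (1.53), and CBL, a ubiquitin ligase for active tyrosine kinases, from 17.6 ± 0.87 to 50.1 ± 2.31 CPM (1.51). PTPRA thus moved in the same direction as CSK, which places the phosphate that it removes. CBLB, a close relative of CBL, moved the other way, from 52.9 ± 1.56 to 21.1 ± 1.02 CPM (log2 fold change -1.34). With GC and length adjustment the log2 fold changes were 1.36 for UNC119B, 1.44 for PTPRA, 1.06 for CBL and -1.48 for CBLB.

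CDC37, which hands kinases to the chaperone HSP90, had a log2 fold change of -0.50, which was -0.26 with GC and length adjustment, and passed in both. PTPN6, a phosphatase mainly of blood cells, had a log2 fold change of -0.32 (adjusted p = 0.0245), a call that was lost with DESeq2 (adjusted p = 0.109), with GC and length adjustment (adjusted p = 0.202), and without siControl replicate 2 (adjusted p = 0.0698), siControl replicate 3 (adjusted p = 0.0544) or siKMT9α#1 replicate 2 (adjusted p = 0.0867). PAG1, the membrane adaptor that recruits CSK, did not pass, nor did PTPRE, DOK1, UNC119, NMT2, HSP90AA1 and HSP90AB1. CBLC and DOK2 were not tested.

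Of 26 genes for substrates and adaptors of the family, 25 were tested, and 16 were higher, 6 were lower and 3 did not pass (PTK2B, CTTN and SHC1). The share called was 88%, against 75.6% of all genes (37.1% higher and 38.5% lower), and the median log2 fold change was 0.42, against -0.01. CDCP1, a membrane protein that is phosphorylated by SRC kinases, rose from 20.02 ± 1.17 to 116.7 ± 4.78 CPM (log2 fold change 2.54). CAV1, the main protein of caveolae, rose from 66.0 ± 3.48 to 380.5 ± 8.11 CPM (2.53), and the docking protein GAB1 rose from 4.6 ± 0.536 to 22.7 ± 0.799 CPM (2.30). In the other direction, CTNND1, the p120 catenin of cell junctions, went from 311.9 ± 16.5 to 149.5 ± 4.02 CPM (-1.06), the podosome scaffold SH3PXD2A went from 23.2 ± 1.67 to 11.9 ± 1.39 CPM (-0.95), and the RAS inhibitor RASA1 went from 74.9 ± 1.28 to 51.7 ± 2.58 CPM (-0.53). With GC and length adjustment the log2 fold changes were 2.26 for CDCP1, 2.56 for CAV1 and 2.05 for GAB1. Those of CTNND1, SH3PXD2A and RASA1 were -1.38, -1.35 and -0.69. EFS had 0 counts and was not tested.

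All 10 receptors on the list of those that recruit SRC kinases were tested. Of these 8 were higher, 1 was lower and ERBB2 did not pass, with a share called of 90%, against 75.6% of all genes (37.1% higher and 38.5% lower), and a median log2 fold change of 0.88, against -0.01. AXL rose from 18.5 ± 0.237 to 311.9 ± 7.95 CPM (log2 fold change 4.07), EGFR from 18.1 ± 0.194 to 107.2 ± 6.85 CPM (2.57) and the integrin subunit ITGB3 from 1.15 ± 0.242 to 3.87 ± 0.445 CPM (1.74), whereas INSR, the insulin receptor, fell from 14.7 ± 1.20 to 10.01 ± 0.585 CPM (-0.56, and -0.97 with GC and length adjustment). No test compared these lists with each other or with the members. The lists were chosen with earlier results of these data known, so their shares and medians are a description.

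**Figure D4:**
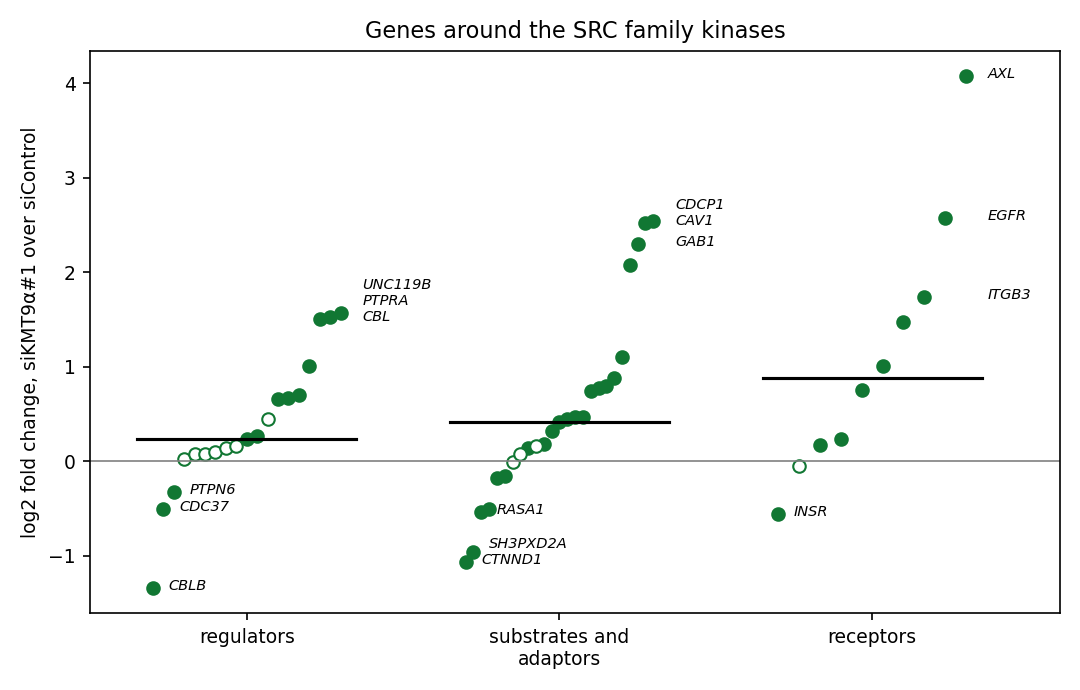
Log2 fold changes (siKMT9α#1 over siControl) of the tested regulators, substrates and adaptors, and receptors are plotted as 1 point per gene in rising order. Filled points passed an adjusted p of 0.05, open points did not, and black lines are the medians of 0.24, 0.42 and 0.88.

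Finally, the genes whose levels followed YES1 most closely across the 6 samples were looked up among 9482 other genes with at least 10 CPM. By Pearson's r of log2 CPM these were ZRANB2, DARS, STK38L, MAGEH1 and LBH, with log2 fold changes of -0.57, -0.67, -1.09, -2.14 and -0.98. The measure is dominated by the step between the groups, and 745 genes had r above 0.99, so that the rank of these 5 genes is a description of 6 samples.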

How the data were processed

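RNA-Seq of 6 A549 samples was analysed, 3 per group. Per the methods, the authors used STAR for alignment to hg19 and HOMER (analyzeRepeats) for counting. They deposited estimated counts per transcript, which are not normalized. The deposited fold change (a linear ratio) and p-value columns of the authors' edgeR comparison were not used. The counting options, the strand and the library type are not given in the sources used here. Of 38767 rows, 1182 lacked a symbol or counts and were left out. For each symbol the transcript with the most counts over the 6 samples was used, and 36.4% of the values were not whole and were rounded. In R 4.3.3, edgeR 4.0.16 was used with TMM factors, filterByExpr and the quasi-likelihood F test, two-sided, on 13877 genes, and the fit was tested on simulated data. A single member can reach no p below 0.1 in an exact permutation test of 3 against 3, the value obtained for each of the 5 members called. Samples of a group differed by more than sampling noise, so no sample was counted as a duplicate. The groups share replicate numbers, but deviations of samples with the same number correlated at -0.07, 0.02 and -0.07, so they were not treated as pairs. P-values set each change against the spread between these samples, which the fit estimates in part across genes.

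The 3′ UTRs came from GENCODE transcripts on GRCh37, with 22142 symbols matched. Genes were named by rule: the members, N6AMT1, POLR2A, GAPDH, all genes of lists of up to 5, the 3 largest changes in each direction among called genes of at least 1 CPM of the other lists, and the 5 genes most like YES1. A result that this rule would name is not reported here. Genes that did not pass are named as well where few. YES1P1, MIR4513, TPI1P3 and the epithelial, blood, fibroblast and endothelial markers singled out were named after their values were seen. The members and lists were chosen with earlier results of these data known. Alternatives were a likelihood-ratio test, DESeq2 1.42.0, other scaling and filters, the sum over transcripts, doubled counts, GC and length offsets (GC known for 98.5% of the genes), a replicate block and each sample left out.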

Additional observations from a re-analysis of the deposited data

How the results depend on the processing

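The directions of the 6 tested members and the calls of YES1, SRC, LYN, FYN and CSK were the same under all 17 alternatives. Their log2 fold changes ranged from -1.62 to -1.46 for YES1, 0.49 to 0.64 for SRC, -0.75 to -0.54 for LYN, -0.61 to -0.43 for FYN and 0.19 to 0.43 for CSK, and from 0.10 to 0.30 for FRK, whose adjusted p stayed between 0.0782 and 0.553. The study's criterion was met by 2 members, by 1 with the replicate number as a block or with the sum over all transcripts (YES1 alone), by 2 to 3 with a sample left out, and by 3 (with LYN) without siControl replicate 1, with DESeq2, the likelihood-ratio test, library size alone, GC and length offsets, no filter, doubled counts or at least 10 counts in every sample. The cause was not tested. The replicate block gave 5017 genes higher and 5212 lower, against 5150 and 5342, and changed no member's call at an adjusted p of 0.05. Library size alone gave 4359 higher and 6212 lower and 2 receptors lower in place of 1. Of the kinases related to the family, 2 in place of 1 were lower with no filter, the sum over transcripts or doubled counts (MATK added). With a sample left out, 4999 to 5198 genes were higher and 5001 to 5225 lower. FRK rested on few counts, and LCK and FGR had too few counts to be tested. The floors cover counting error only, and the intervals of fold changes cover the spread between samples, estimated in part across genes.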
